A study of Homo sapiens with 9 samples.

Results

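The 39 protein-coding HOX genes of the HOXA, HOXB, HOXC and HOXD clusters were followed in messenger RNA of human cells. The labels give the cells as HCT-15, a colorectal adenocarcinoma line. The genes were taken by name, as every protein-coding row called HOX with a cluster letter and a paralogue number, which gave 39 of 60683 rows, with 11 in cluster A, 10 in B, 9 in C and 9 in D. The libraries fall into 3 groups of 3: cells adapted to oxaliplatin, a platinum drug that binds DNA, cells adapted to sorafenib, an inhibitor of RAF and receptor tyrosine kinases, and untreated cells. Per the labels, cells had 0.5 µM oxaliplatin for 7 days, then stepwise 1, 2 and 4 µM (days 10 to 30) and 4 µM thereafter, and sorafenib followed a similar course whose doses are not stated. All 9 libraries carry the genotype label WT and the cells of all groups were grown in RPMI1640 with fetal bovine serum. The labels name the sorafenib cells as resistant lines and do not say whether either drug group was cloned or how resistant it was. Nothing in the labels says that the 3 libraries of a group came from separate cultures, and their titles end in 1 code shared within each group, so the spread that p-values rest on is that of these libraries and may be technical.

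HOX genes encode homeodomain transcription factors that give cells their position along the body axis. They lie in 4 clusters in mammals, and genes of the same number in different clusters, the paralogues, descend from 1 ancestral gene. Low numbers lie at the 3′ end of a cluster and act early and towards the head, while high numbers lie at the 5′ end and act late and towards the tail, and adult epithelia and cell lines keep part of this pattern. HOX proteins bind DNA together with PBX and MEIS cofactors. Retinoic acid and CDX factors open the clusters in the embryo, Trithorax proteins such as KMT2A keep them active, and Polycomb complexes keep them silent.

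Promoter windows are shown for members that mark the ends of the pattern described below: HOXA3, the 1 HOX gene that was higher in both drug groups, with the window farthest upstream and the one nearest its 3′ end of 7 in the table, HOXA9, the highest HOX gene per kb, HOXA7, which lies between expressed neighbours and had no count, HOXD8, the 1 gene of its cluster that could be tested, and HOXB1 from a cluster with no count at all. The windows come from RefSeq on GRCh38.p14, run 5′ to 3′ on the gene's strand from 250 bases before to 50 after an annotated start, and have each CG in capitals.
HOXA3 chr7:27152534-27152833, - strand: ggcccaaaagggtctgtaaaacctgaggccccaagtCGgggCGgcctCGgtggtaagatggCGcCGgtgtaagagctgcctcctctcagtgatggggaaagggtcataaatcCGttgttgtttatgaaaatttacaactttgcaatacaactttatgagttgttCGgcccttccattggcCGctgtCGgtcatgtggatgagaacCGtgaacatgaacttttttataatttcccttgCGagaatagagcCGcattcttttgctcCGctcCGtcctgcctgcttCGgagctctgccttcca
HOXA3 chr7:27113793-27114092, - strand: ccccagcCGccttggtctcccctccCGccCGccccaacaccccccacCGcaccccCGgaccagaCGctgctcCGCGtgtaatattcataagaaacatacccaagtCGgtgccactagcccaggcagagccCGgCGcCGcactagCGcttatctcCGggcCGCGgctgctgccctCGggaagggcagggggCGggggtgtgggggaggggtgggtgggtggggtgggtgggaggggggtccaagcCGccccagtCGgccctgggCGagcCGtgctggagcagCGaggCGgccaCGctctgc
HOXA9 chr7:27165488-27165787, - strand: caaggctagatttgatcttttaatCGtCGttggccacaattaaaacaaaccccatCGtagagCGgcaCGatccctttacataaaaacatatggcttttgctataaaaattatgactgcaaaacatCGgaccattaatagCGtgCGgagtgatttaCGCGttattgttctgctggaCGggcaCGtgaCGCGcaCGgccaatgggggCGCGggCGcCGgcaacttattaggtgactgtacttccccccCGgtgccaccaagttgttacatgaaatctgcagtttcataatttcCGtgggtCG
HOXA7 chr7:27156626-27156925, - strand: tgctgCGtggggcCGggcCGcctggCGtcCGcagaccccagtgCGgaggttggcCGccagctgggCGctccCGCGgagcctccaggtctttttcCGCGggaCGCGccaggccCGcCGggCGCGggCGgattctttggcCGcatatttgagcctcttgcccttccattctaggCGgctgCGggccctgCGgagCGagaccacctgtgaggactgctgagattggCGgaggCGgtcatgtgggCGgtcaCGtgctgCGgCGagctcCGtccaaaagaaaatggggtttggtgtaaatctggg
HOXD8 chr2:176129455-176129754, + strand: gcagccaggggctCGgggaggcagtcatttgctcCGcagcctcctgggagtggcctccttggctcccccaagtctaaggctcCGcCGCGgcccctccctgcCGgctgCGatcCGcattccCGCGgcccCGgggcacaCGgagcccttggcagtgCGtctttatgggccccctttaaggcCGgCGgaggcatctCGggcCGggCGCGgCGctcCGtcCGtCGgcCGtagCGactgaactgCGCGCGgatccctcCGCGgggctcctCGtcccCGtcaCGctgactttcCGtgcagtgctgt
HOXB1 chr17:48530962-48531261, - strand: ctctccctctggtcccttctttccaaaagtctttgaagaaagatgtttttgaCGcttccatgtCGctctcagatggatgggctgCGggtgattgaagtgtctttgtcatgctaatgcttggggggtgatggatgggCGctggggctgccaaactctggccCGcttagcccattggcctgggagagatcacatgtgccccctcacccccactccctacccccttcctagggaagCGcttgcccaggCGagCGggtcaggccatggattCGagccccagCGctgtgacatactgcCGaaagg

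The table holds 27 windows for 20 of the 39 HOX genes, of which HOXC4 and HOXC5 share 1. The HOXA7 window holds 31 CG and that of HOXD8 34, more than 79.3% and 84.4% of all 35116 windows, whose median is 14. HOXA9 has 22, HOXA3 15 in the upstream and 25 in the 3′ window, and HOXB1 11. The 15 windows of tested HOX genes had a median of 21 CG and a range of 0 to 34, and the 9 windows of genes with no count in any library a median of 23 and a range of 4 to 36. CG density in these windows therefore overlapped widely between counted and uncounted genes. However, 7 of the 15 tested windows are starts of HOXA3, among them the window with 0 CG. The motif TGATTNAT, which PBX-HOX pairs bind, was searched on both strands and lies in 2 HOX windows, those of HOXA2 and HOXD11, or 7.41%, against 2.82% of all windows. The half-site AGGTCA of retinoid receptors lies in 0 of the 27, against 13.8% of all windows, and TATAAA in 5 of them, or 18.5%, against 11.5%. No HOX window held more than 1 kind of these 3 motifs, and that of HOXD13 held 2 matches to TATAAA. A match in these letters is a description and not a binding site.

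HOX paralogues in different clusters share stretches of sequence, so the longest exact runs between them were measured. Over whole transcripts the longest exact run shared by HOXA3 and HOXB3 is 32 bases. Among 569 pairs of HOX genes from different clusters, the longest was 62 bases, in HOXB3 and HOXD3, and the median was 15. Between a HOX gene with no count and a tested one it was at most 34 bases. How reads with several alignments were counted is not given in the sources used here.

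Each library held between 15797076 and 20936536 counts, and a count of 0 in 1 library allows up to 3 counts, or 0.143 to 0.19 counts per 1000000 counts (CPM). HOX genes took 47.5 to 69.6 of each 1000000 counts in a library, and 14 to 16 of them had at least 1 count. This share and the limits for a count of 0 are per total count, while all other CPM are scaled as described in the processing section. The labelled colorectal identity was checked on 18 marker genes, of which 15 had a median under 1 CPM and 9 had no count in any library, among them CDX1 and CDX2, the intestinal homeobox factors, and CDH1, the gene of E-cadherin. EPCAM lay between 0.365 and 1.38 CPM. Of 15 renal epithelial markers, 6 had a median of at least 10 CPM, with PAX8, a kidney and thyroid factor, at 247 to 411 CPM and PAX2, a factor of the kidney lineage, at 7.68 to 26.9 CPM. The summed colorectal markers were at 730 to 874 CPM with oxaliplatin, 864 to 1140 with sorafenib and 1150 to 1580 in untreated cells, and the renal ones at 788 to 828, 696 to 756 and 480 to 633 CPM. The markers thus went against the tissue label, and all 9 titles carry the code 769, which the labels do not explain. The identity of the line is uncertain for every value here, and the cells are called by their groups. Of 6 immune markers, 5 had a median under 1 CPM, and their sum overlapped between the groups, at 17.7 to 57.8 CPM. Of 10 fibroblast and endothelial markers, 8 had a median under 1 CPM and 4 had no count, and their summed level was 16.6 to 24.7 CPM with oxaliplatin, 4.13 to 5.05 with sorafenib and 11.4 to 48.9 in untreated cells. COL1A1, a collagen of fibroblasts, made up 12.6 to 19.8, 1.18 to 1.93 and 6.04 to 43 CPM of these sums. In untreated 1 to 3 it was at 6.04, 43 and 40.5 CPM. COL3A1 and LUM, also fibroblast markers, had no count, and COL1A2, DCN and PDGFRA had 4, 2 and 2 counts over all 9 libraries. PDGFRB lay at 2.44 to 6.9 CPM. The part of these markers and of any such cells in the HOX values was not tested, and in bulk RNA fewer cells of a type and less RNA per cell cannot be told apart.

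The HOX genes with counts formed a narrow set. Of the 39, 21 had no count in any of the 9 libraries, which allows up to 0.0181 CPM over all libraries together, 18 had at least 1 count, and 13 passed the filter on low counts and were tested. Among these 13 were HOXA2, HOXA3, HOXA4, HOXA5, HOXA6, HOXA9 and HOXA10, HOXC4, HOXC6, HOXC8 and HOXC9, and HOXD8. Cluster A gave 80.1% of all 9786 HOX counts, cluster C 16.4%, cluster D 3.47% and cluster B 0. HOXA9, HOXA3, HOXA10 and HOXC9 together held 76.4% of them.

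By paralogue number, groups 2, 3, 5 and 10 had 1 tested gene each, all in cluster A. Groups 4 and 6 each had a tested pair in clusters A and C, group 9 likewise with HOXA9 and HOXC9, and group 8 had HOXC8 and HOXD8. Groups 7, 11, 12 and 13 had no tested gene. In cluster A the counted genes therefore reached HOXA10, with a gap at HOXA7, and counts stopped before paralogue 11 in every cluster except for traces of group 13.

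**Figure D1:**
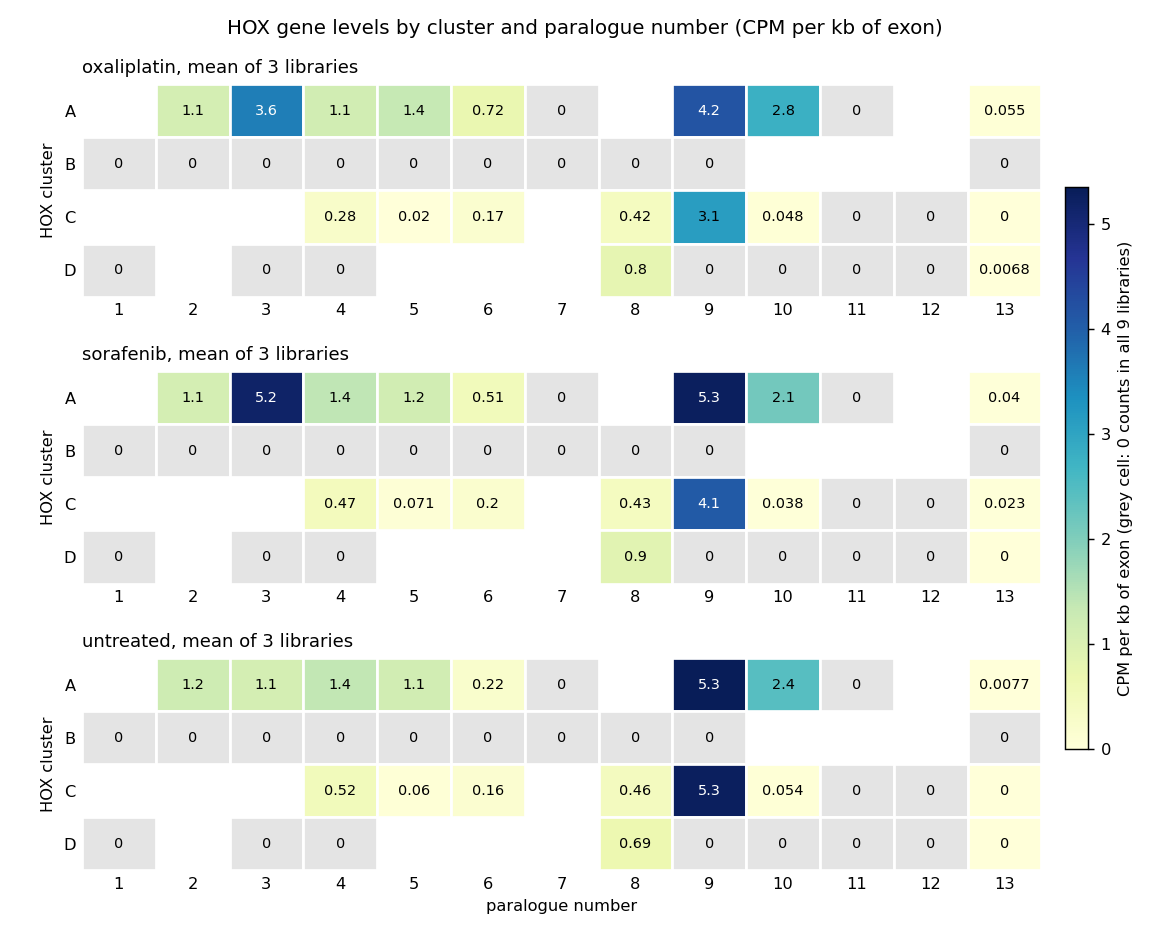
Mean level of HOX genes in CPM per kb of exon, with 1 panel per group (3 libraries each), clusters A to D down the page and paralogue numbers 1 to 13 across. Colour and printed value give the mean, grey cells are genes with 0 counts in all 9 libraries, and blank places hold no value; the HOXB row is grey throughout, and HOXA3 reads 3.6 with oxaliplatin, 5.2 with sorafenib and 1.1 in untreated cells.

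Levels between genes were compared per kb of annotated exon. These lengths include bases shared with other genes, and the share a gene had to itself differed. It was 52.7% for HOXA4, 73% for HOXA9, 73.7% for HOXA10, 82.1% for HOXA3, 90.3% for HOXC9 and 100% for HOXA5. The part of this overlap in the order of the genes was not tested. Averaged over the 9 libraries, HOXA9 stood highest at 4.93 CPM per kb, followed by HOXC9 at 4.16, HOXA3 at 3.29 and HOXA10 at 2.46. These are middling levels: 68.4% of 19897 protein-coding genes lay below HOXA9 and 57.9% below HOXA10, and the median protein-coding gene had 1.18 CPM per kb. HOXA4, HOXA5 and HOXA2 lay at 1.32, 1.22 and 1.15 CPM per kb, HOXD8 at 0.796, and HOXA6, HOXC8, HOXC4 and HOXC6 between 0.483 and 0.179.

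The order of the HOX genes differed between groups mainly in the place of HOXA3. With oxaliplatin, HOXA9 had 4.16 ± 0.812, HOXA3 3.58 ± 1.8, HOXC9 3.12 ± 0.83 and HOXA10 2.78 ± 0.514 CPM per kb (SD, n = 3), and neighbours in this order did not differ beyond their spread. With sorafenib, HOXA9 at 5.27 ± 0.382 and HOXA3 at 5.18 ± 0.354 lay within their spread, above HOXC9 at 4.07 ± 0.209 and HOXA10 at 2.15 ± 0.621 CPM per kb. In untreated cells HOXA9 at 5.35 ± 0.176 and HOXC9 at 5.28 ± 0.4 lay within their spread, and HOXA10 had 2.43 ± 0.179 CPM per kb. HOXA3 at 1.11 ± 0.378 CPM per kb came after HOXA4, HOXA2 and HOXA5 at 1.39 ± 0.107, 1.22 ± 0.131 and 1.15 ± 0.0843. These differences lay within the SD of HOXA3, though the one to HOXA4 exceeded the SD of HOXA4.

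HOXA3 was higher in both drug groups than in untreated cells, and HOXC9 and HOXC4 were lower with oxaliplatin. The threshold was an adjusted p under 0.05 in the quasi-likelihood test of edgeR, with Benjamini-Hochberg adjustment over all 16159 genes tested, and genes past it are referred to as called. Against untreated cells, oxaliplatin-adapted cells had 1 HOX gene higher (HOXA3) and 2 lower (HOXC9 and HOXC4) of 13, where 31.7% of all tested genes were called, 16.2% higher and 15.5% lower. Sorafenib-adapted cells had 1 higher (HOXA3) and 0 lower, where 4.8% of all tested genes were called, 2.82% higher and 1.97% lower. DESeq2 called HOXA3, HOXC9 and HOXA6 with oxaliplatin, without HOXC4 (adjusted p = 0.0781), and HOXA3 with sorafenib. Between oxaliplatin and sorafenib, edgeR called 0 of 13, where 10.3% of all tested genes were called, 5.2% higher and 5.07% lower; at an unadjusted p under 0.05 there was 1 (HOXC4), and DESeq2 called 0.

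Read against the shares of all genes, neither count is a result about the HOX genes as a group. The median log2 fold change of the 13 was 0.09 for oxaliplatin against untreated, -0.02 for sorafenib against untreated and -0.17 for oxaliplatin against sorafenib, beside 0.02, 0.00 and -0.01 for all tested genes. Both drug comparisons share the untreated libraries. HOXA3 was the 1 HOX gene called in both.

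HOXA3, an anterior gene of the cluster that patterns the neck and thymus, lies at chr7:27106184-27152581 on the minus strand of GRCh38, a span that also holds HOXA4, HOXA5 and HOXA6. It had 18.6, 6.56 and 21.0 CPM in oxaliplatin libraries 1 to 3, 23.6, 22.6 and 20.6 CPM in the sorafenib libraries and 6.16, 2.99 and 5.20 CPM in the untreated ones. All 6 drug libraries lay above the highest untreated one, but oxaliplatin 2 did so barely and stood apart from the other two of its group.

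The level of HOXA3 was 3.22-fold that of untreated cells with oxaliplatin (log2 fold change 1.69 ± 0.41 SE, edgeR adjusted p = 0.0161) and 4.66-fold with sorafenib (2.22 ± 0.42, edgeR adjusted p = 0.0265). Between oxaliplatin and sorafenib the log2 difference was -0.53 with a 95% interval of -1.5 to 0.43 and was not called (edgeR adjusted p = 0.415). The oxaliplatin call was lost without oxaliplatin 1 (edgeR adjusted p = 0.056) or untreated 2 (0.0568), and the sorafenib call without untreated 2 (0.0969), untreated 3 (0.0895), sorafenib 2 (0.094) or sorafenib 3 (0.0903). Its direction held in all 17 alternatives, with log2 fold changes of 1.41 to 2.05 and of 1.97 to 2.44, and edgeR or DESeq2 adjusted p of 0.000176 to 0.0568 and 1.55e-06 to 0.0969.

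Overlapping transcripts limit what the HOXA3 row measures. In GENCODE 29, 9.24% of its exon bases are shared with genes on its own strand and 15.4% with genes on the other, and 82.1% are its own. HOXA-AS2, the antisense RNA that starts beside it, had 5.23, 4.99 and 5.78 CPM with oxaliplatin, 5.00, 6.41 and 3.86 CPM with sorafenib and 6.63, 2.82 and 4.03 CPM in untreated cells, which overlap in each comparison. Its log2 fold change was 0.25 against untreated with oxaliplatin and 0.18 with sorafenib (edgeR adjusted p = 0.562 and 0.75). HOXA-AS3 also overlaps HOXA3 exons. It lay at 0.321 to 1.79 CPM with oxaliplatin, 0.482 to 0.869 with sorafenib and 0.265 to 0.387 in untreated cells. For oxaliplatin against untreated its log2 fold change was 1.41 (edgeR adjusted p = 0.11), not called. The part of either RNA in the HOXA3 values was not tested. Which of the 7 annotated HOXA3 starts was used cannot be read from counts per gene.

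The summed HOXA level moved with HOXA3. It was 47.7 ± 10.3 CPM with oxaliplatin, 55.2 ± 3.91 with sorafenib and 38.8 ± 2.21 in untreated cells (SD, n = 3 each). Without HOXA3 it was 32.3 ± 4.15, 32.9 ± 2.99 and 34.0 ± 0.733 CPM in the same order, differences smaller than the spread. HOXA3 gave 33.4, 18.2 and 40.9% of the HOXA counts with oxaliplatin, 39.6, 42.8 and 38.8% with sorafenib and 15.3, 8.24 and 13% in untreated cells. The oxaliplatin libraries thus spanned the range from near the untreated shares to near the sorafenib ones, with oxaliplatin 2 nearest to untreated.

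**Figure D2:**
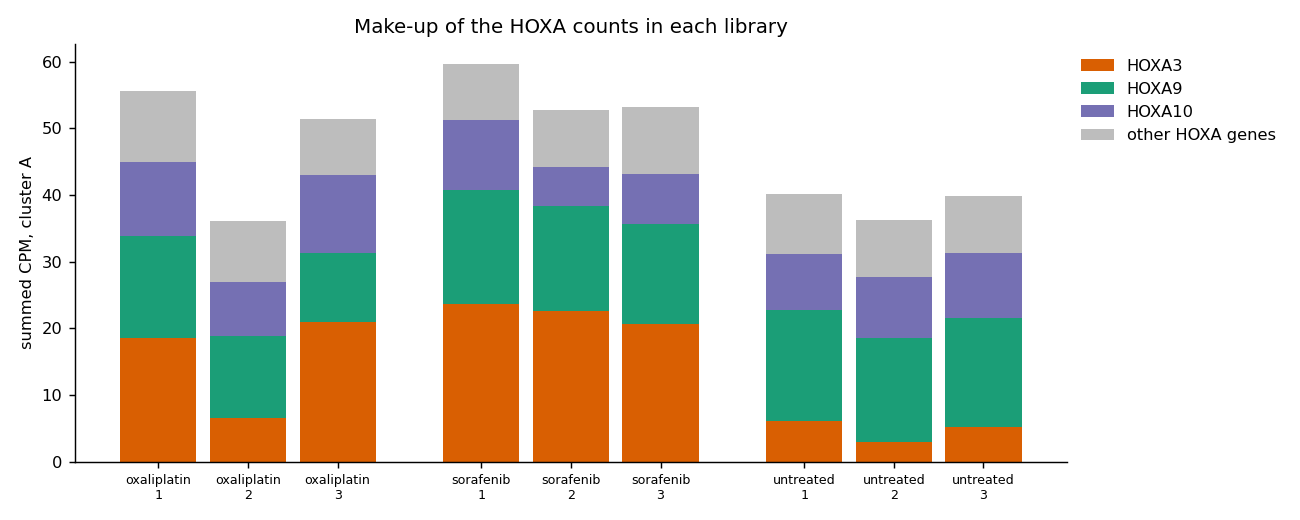
Summed CPM of the HOXA genes in each of the 9 libraries, split into HOXA3, HOXA9, HOXA10 and the other HOXA genes; groups run oxaliplatin, sorafenib, untreated. The HOXA3 segment lies between 6.56 and 23.6 CPM in the drug libraries and between 2.99 and 6.16 CPM in the untreated ones, while the HOXA genes other than HOXA3 sum to between 29.5 and 37.1 CPM in all 9.

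Among the anterior HOXA genes, HOXA2, which patterns the hindbrain, lay at 2.45 to 3.34 CPM across all libraries. HOXA4 and HOXA5, which act in the neck and the lung, lay at 1.46 to 2.84 and 1.53 to 3.21 CPM. None of these 3 was called in any comparison, and the groups overlap in each. Their log2 fold changes lay between -0.29 and 0.23 over the 3 comparisons.

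HOXA6, the next gene towards the 5′ end, was chosen for description after its values were seen. It had 1.05, 0.976 and 0.730 CPM with oxaliplatin, 0.543, 0.511 and 0.911 with sorafenib and 0.587, 0.221 and 0.053 CPM in untreated cells. The oxaliplatin libraries all lay above the untreated ones, while the sorafenib libraries overlapped them through untreated 1. The fold was 3.24 with oxaliplatin (log2 fold change 1.69 ± 0.60, edgeR adjusted p = 0.0534) and 2.30 with sorafenib (edgeR adjusted p = 0.249), neither of which was called, from 1 to 23 counts a library. The oxaliplatin difference passed the threshold in 4 of 16 alternatives, with DESeq2 (adjusted p = 0.046), with library size only (edgeR adjusted p = 0.0449), after correction for GC content and length (0.0341) and without untreated 1 (0.0115). Of the exon bases of HOXA6, 39.3% overlap exons on the other strand, among them those of HOXA-AS3. HOXA-AS3 had 0.321, 1.79 and 0.608 CPM with oxaliplatin, 0.869, 0.738 and 0.482 with sorafenib and 0.352, 0.387 and 0.265 CPM in untreated cells, and its part in the HOXA6 values was not tested.

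HOXA9 and HOXA10, the 5′ pair of the tested HOXA genes, are known for their roles in limb, urogenital tract and blood. HOXA9 had 15.2, 12.3 and 10.3 CPM with oxaliplatin, 17.2, 15.7 and 15.0 with sorafenib and 16.6, 15.6 and 16.4 CPM in untreated cells. All oxaliplatin libraries lay below the lowest untreated one, and the sorafenib libraries overlapped it. The log2 fold change was -0.36 ± 0.16 with oxaliplatin (95% interval -0.75 to 0.03, edgeR adjusted p = 0.106) and -0.02 ± 0.16 with sorafenib (-0.40 to 0.36, 0.956), so neither was called. HOXA10 lay at 8.14 to 11.7 CPM with oxaliplatin, 5.96 to 10.5 with sorafenib and 8.33 to 9.65 in untreated cells, which overlap, with edgeR adjusted p of 0.537 and 0.664.

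HOXA13, the last gene of the cluster, known for the hindgut, the digits and the genital tract, was not tested. It had 6, 6 and 4 counts with oxaliplatin, 3, 4 and 4 with sorafenib and 2, 0 and 0 in untreated cells. The oxaliplatin and sorafenib libraries lay above the untreated ones, but all 9 lay close to the limit of 3 counts.

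**Figure D3:**
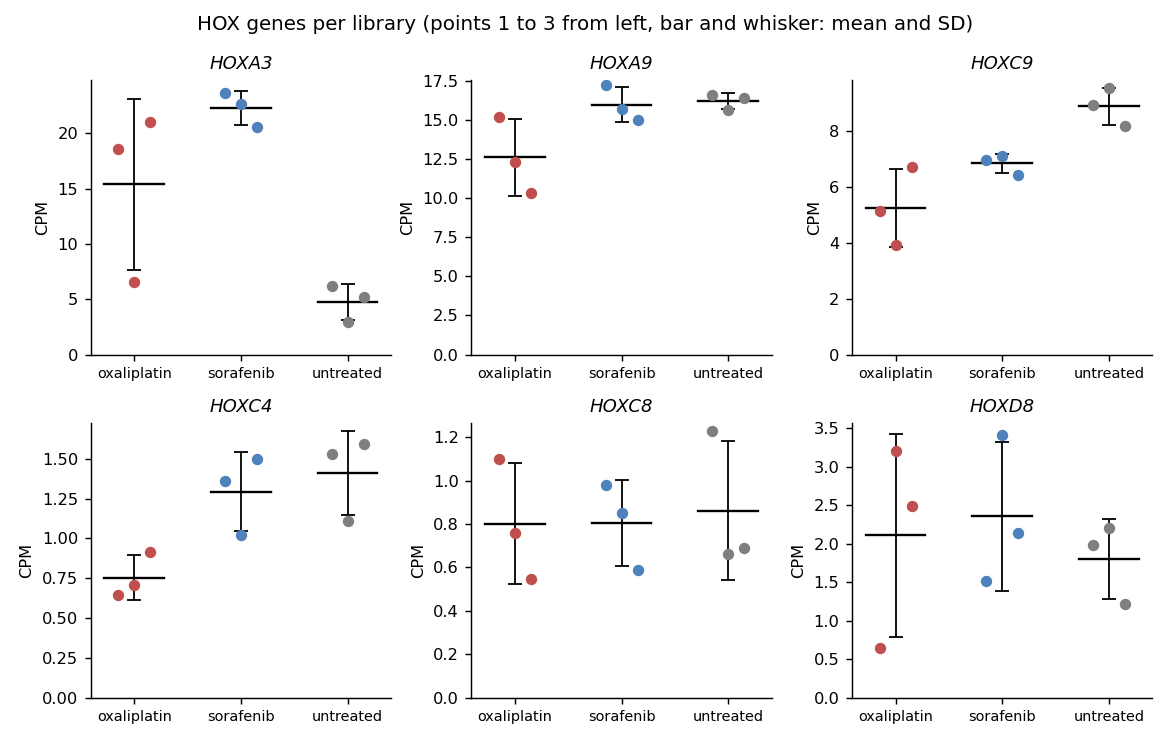
CPM of 6 HOX genes in each library, with points 1 to 3 from left in each group, the bar at the group mean and the whisker at 1 SD (n = 3). HOXA3 is high in the sorafenib libraries and in 2 of 3 oxaliplatin libraries, HOXC9 and HOXC4 are lower in the oxaliplatin libraries than in the untreated ones, and HOXC8 and HOXD8 overlap between all groups.

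In cluster C the summed level was 7.56 ± 1.74 CPM with oxaliplatin, 9.92 ± 0.562 with sorafenib and 11.9 ± 0.778 in untreated cells (SD, n = 3 each). HOXC9, a thoracic gene with a role in motor neurons, gave most of it. It lies at chr12:53994895-54003337 on the plus strand, and 90.3% of its exon bases are its own. It had 5.13, 3.91 and 6.69 CPM with oxaliplatin, 6.96, 7.10 and 6.43 with sorafenib and 8.92, 9.51 and 8.17 CPM in untreated cells. All 6 drug libraries lay below the lowest untreated one, with oxaliplatin 2 lowest.

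The level of HOXC9 with oxaliplatin was 0.591 of that in untreated cells (log2 fold change -0.76 ± 0.20, edgeR adjusted p = 0.0189). With sorafenib the log2 fold change was -0.38 ± 0.20 (95% interval -0.86 to 0.11, edgeR adjusted p = 0.264), and between oxaliplatin and sorafenib it was also -0.38 (edgeR adjusted p = 0.247), neither of which was called. The oxaliplatin call was lost without untreated 2 (edgeR adjusted p = 0.0651), oxaliplatin 1 (0.0642) or oxaliplatin 2 (0.0584), and over the 17 alternatives the log2 fold change ran from -0.96 to -0.59.

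HOXC4, the 3′ gene of the cluster and a paralogue of HOXA4, lies at chr12:54016931-54056030 on the plus strand. It had 0.642, 0.705 and 0.912 CPM with oxaliplatin, 1.36, 1.02 and 1.5 with sorafenib and 1.53, 1.11 and 1.59 CPM in untreated cells. The oxaliplatin libraries lay below all others, and the sorafenib and untreated libraries overlapped. With oxaliplatin its level was 0.534 of that in untreated cells (log2 fold change -0.91 ± 0.30, edgeR adjusted p = 0.0459), from 13 to 30 counts a library. This call held in only 3 of 17 alternatives, at edgeR or DESeq2 adjusted p of 0.0392 to 0.145, and was lost without any 1 of 8 libraries, the exception being oxaliplatin 3. Exons of HOXC5 and HOXC6 overlap 17.8% of its exon bases on the same strand.

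HOXC8, a thoracic gene, and HOXC6 were not called in any comparison. HOXC8 had 1.10, 0.759 and 0.547 CPM with oxaliplatin, 0.978, 0.851 and 0.589 with sorafenib and 1.23, 0.663 and 0.690 CPM in untreated cells, and HOXC6 lay between 0.265 and 1.03 CPM. The groups overlap for both. HOXC5 had 15 counts in 5 libraries, HOXC10 18 in 5 and HOXC13 3 in 1, and these were not tested.

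HOXD8 stood alone in cluster D, at chr2:176129694-176132695 on the plus strand, with no other gene over its exons. It had 0.642, 3.20 and 2.49 CPM with oxaliplatin, 1.52, 3.41 and 2.14 with sorafenib and 1.99, 2.21 and 1.22 CPM in untreated cells. Oxaliplatin 1 was the lowest library of all and oxaliplatin 2 among the highest, so the groups overlap in each comparison. The log2 fold changes were 0.21 with oxaliplatin (95% interval -1.09 to 1.51) and 0.38 with sorafenib (-0.91 to 1.67), at edgeR adjusted p of 0.788 and 0.691. Of the other 8 HOXD genes, HOXD13 had 1 count, in oxaliplatin 1, and the rest had none.

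**Figure D4:**
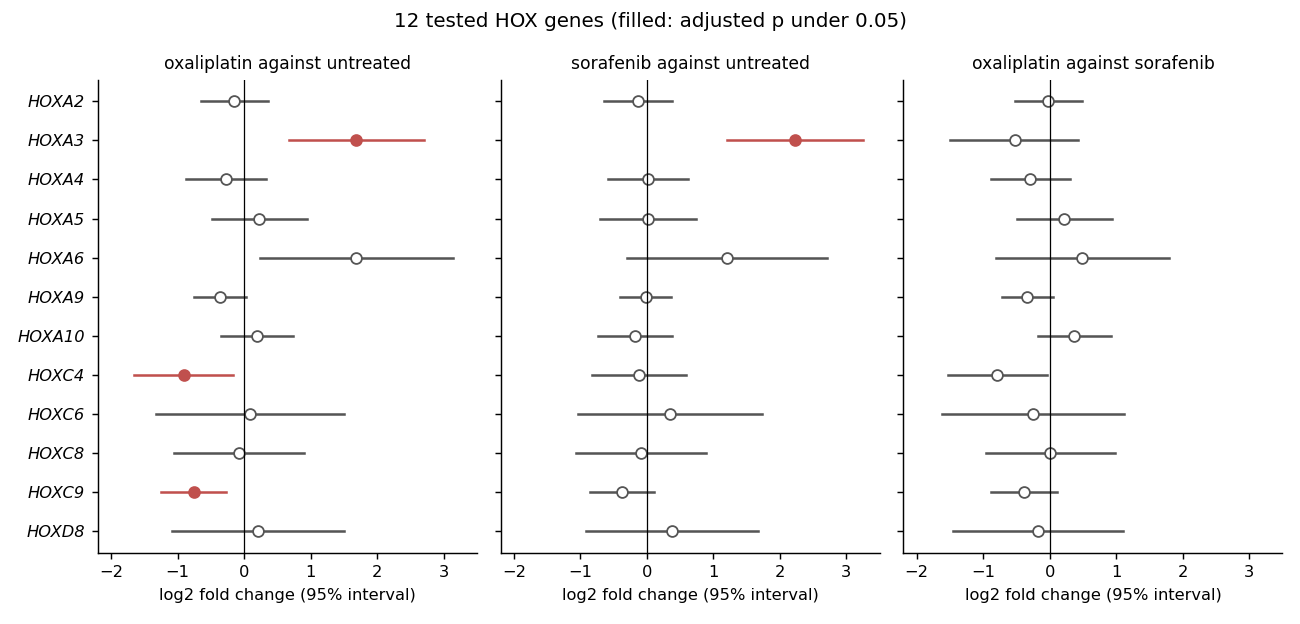
Log2 fold change and 95% interval of 12 tested HOX genes in the 3 comparisons, each named with the group on top of the ratio first. Filled points have an adjusted p under 0.05: HOXA3 at 1.69, HOXC4 at -0.91 and HOXC9 at -0.76 for oxaliplatin against untreated, HOXA3 at 2.22 for sorafenib against untreated, and none between the drugs.

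The genes without a single count were all 10 of cluster B, HOXA7, HOXA11, HOXC11, HOXC12, and HOXD1, HOXD3, HOXD4, HOXD9, HOXD10, HOXD11 and HOXD12. HOXA7 lies between HOXA6 and HOXA9, which both had counts in all libraries. Where counting leaves out reads that fall on 2 genes, a 0 rests on the bases that belong to a gene alone, and in GENCODE 29 these were 37.5% of the exon bases of HOXA7 and 19.5% of those of HOXD4. Of the 21 genes at 0, 4 had under 50% of their exon bases to themselves and 9 had 100%. In cluster B the lowest share was 67.1%. The part of overlap in these 0 counts was not tested. The annotation release the submitters used is not given in the sources used here, and all 39 gene IDs were found in GENCODE 29, 16 of them at identical coordinates.

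Of 18 noncoding RNAs of the HOX clusters, 12 had no count, among them HOTAIR of cluster C, HOTTIP at the 5′ end of cluster A, HAGLR of cluster D and those of cluster B. The 6 tested were HOTAIRM1, HOXA-AS2, HOXA-AS3, HOXA10-AS, HOXC-AS1 and HOXC-AS2, and edgeR called 0 of them in any comparison, as did DESeq2. Of all tested genes, 31.7% were called with oxaliplatin, 4.8% with sorafenib and 10.3% between the drugs. At an unadjusted p under 0.05 there was 1 of the 6 with oxaliplatin (HOXA-AS3) and 0 in the other comparisons. HOXC-AS2 and HOXA10-AS lay at 0.704 to 1.93 and 0.939 to 2.14 CPM. HOTAIRM1, a myeloid RNA of cluster A, had 4.17, 2.66 and 3.10 CPM with oxaliplatin, 4.78, 3.97 and 4.18 with sorafenib and 4.99, 4.20 and 3.87 CPM in untreated cells, which overlap, with edgeR adjusted p of 0.194 and 0.982 against untreated.

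Of 9 tested neighbours of the clusters, 2 were higher and 0 lower with oxaliplatin (median log2 fold change 0.12). Of all tested genes, 31.7% were called there, 16.2% higher and 15.5% lower. With sorafenib edgeR called 0 of the 9 (median 0.05), beside 4.8% of all tested genes. DESeq2 also called 0 of the 9, and 0 were at an unadjusted p under 0.05. CALCOCO1, a coactivator gene beside cluster C, had 85, 74.4 and 70.8 CPM with oxaliplatin, 46.6, 45 and 37.3 with sorafenib and 44.6, 45.7 and 39.8 CPM in untreated cells. The oxaliplatin libraries lay above all others, and the log2 fold change was 0.82 ± 0.13 against untreated (edgeR adjusted p = 0.00258), called in all 17 alternatives, while HOXC9 and HOXC4 in the cluster beside it were lower.

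SKAP2, an adaptor protein gene beside cluster A, had 49.1, 46.5 and 45.1 CPM with oxaliplatin, 33.8, 36.1 and 37.6 with sorafenib and 37, 37.6 and 33.5 CPM in untreated cells. Its log2 fold change with oxaliplatin was 0.38 ± 0.10 (edgeR adjusted p = 0.0207), a call lost in 7 of 17 alternatives, among them those without untreated 2 (0.0502), untreated 3 (0.081), oxaliplatin 1 (0.0832) or oxaliplatin 2 (0.0531) and the correction for GC content and length, where the value was 0.13. HIBADH, an enzyme of valine breakdown on the other side of that cluster, lay at 120 to 182 CPM and was not called. SKAP1, PRAC1 and PRAC2, listed here as neighbours of cluster B, had no count in any library. TTLL6 and CALCOCO2, also listed beside cluster B, had counts in all 9 libraries, at 0.106 to 0.624 and 44.6 to 79.1 CPM.

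Among the ParaHox genes and the EVX genes at the clusters' edges, 7 of 8 had no count in any library, including CDX1, CDX2, CDX4, EVX1 and EVX2, and none could be tested. Of the TALE cofactors that bind DNA with HOX proteins, 7 of 9 were tested. With oxaliplatin 1 was higher and 0 lower (median log2 fold change 0.32), beside 16.2% and 15.5% of all tested genes. With sorafenib 0 were called (median -0.32), beside 4.8% of all tested genes. Of the 7, 1 was under an unadjusted p of 0.05 with sorafenib and DESeq2 called 1. MEIS1 lay at 2.06 to 2.17 CPM with oxaliplatin, 1.18 to 1.47 with sorafenib and 1.33 to 2.11 CPM in untreated cells and was not called, at edgeR adjusted p of 0.281 and 0.421 against untreated. MEIS2 lay at 10.7 to 12.7 CPM with oxaliplatin, 9.89 to 11.6 with sorafenib and 12.8 to 17.3 in untreated cells, below the untreated libraries in both drug groups but not called (edgeR adjusted p = 0.0631 and 0.0781), and MEIS3 lay at 9.06 to 17.9 CPM.

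Genes of the Trithorax group and its partners, which keep HOX clusters active, gave 6 higher and 4 lower of 20 with oxaliplatin (median log2 fold change 0.23). Of all tested genes, 31.7% were called there, 16.2% higher and 15.5% lower. With sorafenib 0 of the 20 were called (median 0.03), beside 4.8% of all tested genes. Of the 20, 5 were under an unadjusted p of 0.05 with sorafenib and DESeq2 called 2. KMT2A, the histone methyltransferase best known for keeping HOX genes active, had 109, 75.6 and 65.6 CPM with oxaliplatin, 32.1, 56.5 and 42.7 with sorafenib and 26.8, 30.2 and 21.4 CPM in untreated cells. Both drug groups lay above the untreated libraries without overlap, and the oxaliplatin libraries above the sorafenib ones. The log2 fold change with oxaliplatin was 1.68 ± 0.25 (edgeR adjusted p = 0.00259) and stayed called in all 17 alternatives, though at 0.87 after correction for GC content and length. With sorafenib it was 0.74 ± 0.25 and was not called (edgeR adjusted p = 0.103), except with DESeq2 (0.0448) and without sorafenib 1 (edgeR adjusted p = 0.0459). Between the drugs it was 0.93 ± 0.25 (edgeR adjusted p = 0.0418), a call lost in 9 of 17 alternatives, with adjusted p up to 0.139 without oxaliplatin 1.

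ASH1L, another histone methyltransferase of this group, had 91, 81.6 and 95.8 CPM with oxaliplatin, 48.7, 70.8 and 60 with sorafenib and 45.3, 34.6 and 23.9 CPM in untreated cells. Its log2 fold change with oxaliplatin was 1.37 ± 0.22 (edgeR adjusted p = 0.00312), called in all 17 alternatives and 0.85 at the lowest. The sorafenib libraries also lay above the untreated ones, but the difference was not called (0.79, edgeR adjusted p = 0.0637). AFF4, a scaffold of transcription elongation, lay at 155 to 191 CPM with oxaliplatin, 101 to 152 with sorafenib and 82.7 to 111 in untreated cells, with a log2 fold change of 0.86 for oxaliplatin against untreated (edgeR adjusted p = 0.00606) that was 0.39 after correction for GC content and length.

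Polycomb genes gave 3 higher and 3 lower of 27 with oxaliplatin (median -0.04), beside 16.2% and 15.5% of all tested genes. With sorafenib 0 of the 27 were called (median -0.04), beside 4.8% of all tested genes. Of the 27, 4 were under an unadjusted p of 0.05 with sorafenib and DESeq2 called 2. PHF19, which helps the repressive complex 2 bind chromatin, had 38.8, 35.8 and 40.1 CPM with oxaliplatin, 59.6, 53.6 and 51.0 with sorafenib and 64.2, 76.2 and 72.9 CPM in untreated cells, without overlap between any 2 groups. Its log2 fold change with oxaliplatin was -0.90 ± 0.11 (edgeR adjusted p = 0.00145). RBBP7, a histone-binding subunit, fell by 0.52 on the log2 scale (edgeR adjusted p = 0.00661), or by 0.82 after correction for GC content and length. PHC3, of the repressive complex 1, was higher by 0.72 (edgeR adjusted p = 0.00883), a call lost after that correction, where the value was 0.07 (edgeR adjusted p = 0.548). EZH2, the catalytic subunit of the repressive complex 2, lay at 55.8 to 60.5 CPM with oxaliplatin, 51.4 to 56.7 with sorafenib and 55.3 to 69.6 in untreated cells and was not called (edgeR adjusted p = 0.507 and 0.22).

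In the retinoic acid pathway, 0 of 11 tested genes were higher and 3 lower with oxaliplatin (median -0.22), and 1 was higher and 1 lower with sorafenib (median -0.27). Of all tested genes, 16.2% were higher and 15.5% lower with oxaliplatin, and 2.82% and 1.97% with sorafenib. CRABP2, which carries retinoic acid to its nuclear receptors, had 4.77, 5.26 and 6.44 CPM with oxaliplatin, 4.13, 5.79 and 4.61 with sorafenib and 10.1, 12.1 and 13 CPM in untreated cells. All 6 drug libraries lay below the untreated ones, with log2 fold changes of -1.10 ± 0.19 with oxaliplatin (edgeR adjusted p = 0.00413) and -1.28 ± 0.20 with sorafenib (edgeR adjusted p = 0.0102, or 0.0613 without sorafenib 3).

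RDH10, which makes retinaldehyde from retinol, had 102, 97.5 and 86.5 CPM with oxaliplatin, 177, 183 and 184 with sorafenib and 101, 56.4 and 48.5 CPM in untreated cells. The sorafenib libraries lay above all others, while untreated 1 overlapped the oxaliplatin libraries. The log2 fold change with sorafenib was 1.4 ± 0.24 (edgeR adjusted p = 0.0169), a call lost without untreated 2 (0.0733), sorafenib 2 (0.0645) or sorafenib 3 (0.0707) and with those 2 groups alone (0.0569). STRA6, the cell's retinol importer, lay at 1.7 to 2.93 CPM with oxaliplatin and 4.09 to 5.69 CPM in untreated cells, and fell by 1.08 on the log2 scale with oxaliplatin (edgeR adjusted p = 0.0176), a call lost without oxaliplatin 1.

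Cohesin and CTCF genes, which shape chromatin loops at the clusters, gave 3 higher and 1 lower of 8 with oxaliplatin (median 0.31). Of all tested genes, 16.2% were higher and 15.5% lower there. With sorafenib 0 of the 8 were called (median 0.13), beside 4.8% of all tested genes. Of the 8, 2 were under an unadjusted p of 0.05 with sorafenib and DESeq2 called 2. NIPBL, the loader of cohesin, lay at 88.2 to 115 CPM with oxaliplatin, 50.9 to 69.8 with sorafenib and 49 to 57.7 in untreated cells, with a log2 fold change of 0.89 for oxaliplatin against untreated (edgeR adjusted p = 0.00344) that was 0.29 after correction for GC content and length. The cohesin ring genes SMC1A and SMC3 were at 0.91 and -0.39 (edgeR adjusted p = 0.03 and 0.0326), calls that were each lost in 7 of 17 alternatives, and SMC1A was at 0.56 after that correction.

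**Figure D5:**
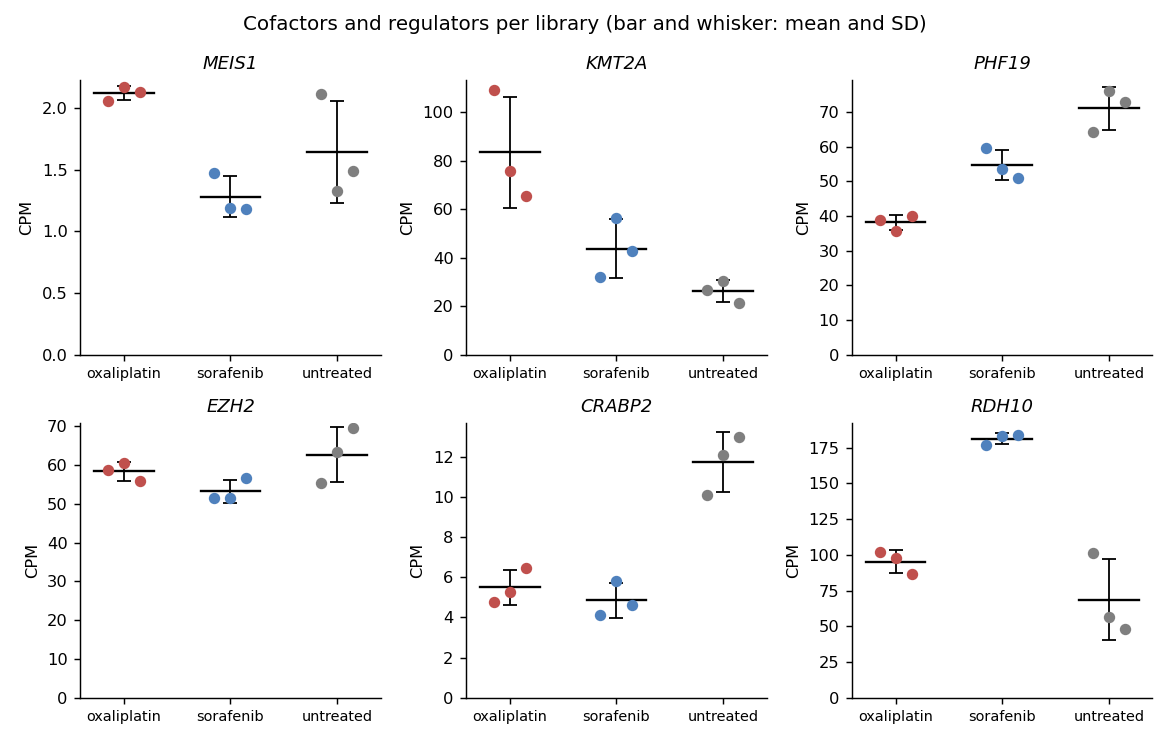
CPM of 6 genes of HOX cofactors and regulators in each library, with points 1 to 3 from left in each group, the bar at the group mean and the whisker at 1 SD (n = 3). KMT2A is highest and PHF19 lowest with oxaliplatin, CRABP2 is lower in both drug groups than in untreated cells, RDH10 is highest with sorafenib at 177 to 184 CPM, and EZH2 overlaps between oxaliplatin and untreated.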

How the data were processed

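The values are integer counts per gene that the authors deposited for 9 libraries of 60683 genes each, made with featureCounts on GRCh38 per the submitters' processing notes, which also name DESeq2 and give no versions. Aligner, annotation release, strand option and treatment of multiply aligned reads are not given in the sources used here. In R 4.3.3, edgeR 4.0.16 filtered genes (filterByExpr), which left 16159 of which 13 are HOX genes, and scaled libraries by TMM factors of 0.944 to 1.05. One robust quasi-likelihood fit took all 9 libraries, with a coefficient for each group, and 3 contrasts were tested 2-sidedly, with Benjamini-Hochberg adjustment over all genes tested. CPM are counts per 1000000 after TMM scaling of the tested genes' totals, and CPM per kb divides them by the union of exons in GENCODE 29. Each fold change's SE was taken as its size divided by the root of its F value, and 95% intervals use 6 residual degrees of freedom, so they are wider than the moderated test implies.

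The HOX genes and the 12 gene lists were chosen with earlier results of these data known. Values in every library are given for HOX genes called in at least 1 contrast and for the 2 highest per kb in each cluster, and from each list of HOX cofactors, regulators, RNAs and neighbours up to 3 genes are named with the smallest adjusted p and a mean of at least 1 CPM, and genes fixed by name. The 17 alternatives were DESeq2 1.42.0, RLE factors, library size only, no filter, a mean of at least 1 CPM, only the 2 groups compared, the replicate number as a block, each library left out, and, chosen after seeing the data, a loess correction (span 0.5) for GC content and length. Libraries of a group differed by more than sampling noise (chi-square per degree of freedom 16.9 to 36.3). Intervals from a count of 0 cover counting error only. Some genes that these rules name are not reported here.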

Additional observations from a re-analysis of the deposited data

How the results depend on the processing

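Over all alternatives, HOXA3 kept its direction in both drug comparisons and HOXC9 and HOXC4 theirs with oxaliplatin. With 1 library left out, the number of HOX genes called ranged from 0 to 3 for oxaliplatin and from 0 to 1 for sorafenib against untreated. The number of all genes called then ranged from 2913 to 5403 for oxaliplatin, from 113 to 1743 for sorafenib and from 572 to 1949 between the drugs. For sorafenib against untreated it was 1804 with DESeq2, 311 with only those 2 groups and 1241 after correction for GC content and length, against 775 as reported.

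The replicate numbers of the titles did not pair the libraries, since same-numbered libraries deviated together with correlations of -0.11 to 0.04 (9 pairs) and 0 of 9 libraries lay closest to its own number. With the number as a block, 184 genes were called for sorafenib against untreated and 809 between the drugs, against 775 and 1659.

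Small values turned sign. With library size only, or after correction for GC content and length, HOXC8 was at 0.03 and 0.04 for oxaliplatin against untreated and HOXA9 at 0.02 and 0.02 for sorafenib. Between the drugs HOXC8 was at -0.00 with no filter and -0.02 with the block. With 1 library left out, HOXC8 ranged from -0.39 to 0.26 for oxaliplatin and -0.25 to 0.25 for sorafenib against untreated, and -0.29 to 0.22 between the drugs. HOXD8 ranged from -0.24 to 0.66 for oxaliplatin and -0.62 to 0.27 between the drugs. For sorafenib against untreated, HOXA9 ranged from -0.08 to 0.02, HOXC4 from -0.27 to 0.02 and HOTAIRM1 from -0.09 to 0.09. HOXA6 and HOXC8 gave no value with a mean of at least 1 CPM. MEIS1 was at -0.06 with oxaliplatin after the GC correction, EZH2 at 0.01 with library size only, and HOTAIRM1 at 0.02 and 0.03 with sorafenib. The share of calls that were higher was 51.1, 58.8 and 50.6% for the 3 comparisons as reported, 65.4, 63.5 and 64.2% with library size only, which moved the median of all genes to 0.13 for oxaliplatin, and 35.9, 40.5 and 41.7% after the GC correction. The cause was not tested.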
